A study of Rattus norvegicus with 4 samples.

Results

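The 8 genes described here, Tap1, Tap2, Tapbp, B2m, Psmb8, Psmb9, Psmb10 and Cd74, act in the cutting, transport and loading of peptides for antigen presentation. They were found by gene name among the gene probes of an Agilent rat expression array, which gave 11 of its 41012 probes. B2m had 4 probes and the other genes 1 each, and all 11 were well above background on all 4 arrays. The arrays were hybridised with RNA of cortical neurons from Sprague Dawley rat embryos of both sexes, taken at stage E18.5. The shCM1 group had received a lentivirus with an shRNA against Cmtr1 at day 2 in vitro, and the shCTL group a lentivirus with a control shRNA. Both groups were harvested at day 7 and held 2 arrays each, replicates 1 and 2. The series' design names 2 independent experiments, and no label says which array came from which. Both groups thus carried a lentivirus and an shRNA. The shRNA sequences are not given in the sources used here, and the labels name 1 shRNA per group, so an effect of the target and an effect of that shRNA on other RNAs cannot be told apart.

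Cells sample their own proteins with the proteasome, and the TAP transporter moves the resulting peptides into the endoplasmic reticulum, where they are loaded onto MHC class I molecules. In the immunoproteasome the subunits encoded by Psmb8, Psmb9 and Psmb10 replace the constitutive catalytic subunits. Interferons are known to raise most genes of this route, neurons generally hold them low, and microglia, the resident immune cells of the brain, express them more readily. CMTR1 methylates the first transcribed nucleotide of capped RNAs, a mark by which innate sensors and interferon-induced proteins tell the cell's own RNA from foreign RNA.

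Levels are log2 signals relative to the 75th percentile of the same array, and differences are shCM1 minus shCTL. Slide 1 carried the arrays numbered 1, one of each group, and slide 2 those numbered 2, and each slide had its own scan. The 75th percentile signal was 596.3 and 743.7 in shCM1 replicates 1 and 2, and 652.2 and 754.5 in shCTL replicates 1 and 2. The share of probes above background ranged over the arrays within 84.0% to 90.4%. Cmtr1 had levels of -3.46 and -3.53 in shCM1 and -1.43 and -1.86 in shCTL, or 27.7% of control. The Cmtr1 difference was -1.85 in this scaling and -1.22 with normexp, so its size depended on the background correction. Its adjusted limma p was 1.65e-06 with the slide fitted as a block and 1.00 without it. Defining markers of neurons were present, with 10 of 10 fixed markers tested. In the blocked fit 1 of them, Tubb3, fell, against 2.69% of all probes. On both slides 6 were lower and none higher, against 22.6% and 44.2% of all probes. Markers of glia were present too, with 9 of 9 for astrocytes and 8 of 8 for the oligodendrocyte lineage tested. Over all probes tested, shCM1 minus shCTL had a median of 0.08, with quartiles of -0.07 and 0.26. This median depended on the scaling. It was 0.06 with normexp, 0.0066 after quantile normalization, 0.0072 with cyclic loess and 0.0066 with the authors' values. The shares of all probes higher or lower on both slides, here and below, are those of the 75th percentile scaling.

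Tap1 was higher in the shCM1 arrays, and it was the 1 gene of the 8 that passed a test. Tap1 encodes a subunit of the TAP peptide transporter. Its level was 0.09 and -0.36 in shCM1 replicates 1 and 2, and -0.52 and -1.13 in shCTL replicates 1 and 2. Both shCM1 arrays lay above both shCTL arrays, and within each group the array of slide 2 was the lower one. The processed signals behind these levels were 636 and 580 in shCM1, and 454 and 346 in shCTL. The difference was 0.62 on slide 1 and 0.77 on slide 2, or 1.53-fold and 1.70-fold. The mean level was -0.13 ± 0.32 in shCM1 and -0.82 ± 0.43 in shCTL (SD, n = 2 each), a difference of 0.69 (SE 0.28). Each SE of a difference, here and below, is from limma without the block unless stated. That holds also where a p or interval of the blocked fit stands beside it.

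Without a block, limma called none of the 11 probes and none of the 36700 probes tested, a share of 0%, with 1110 probes (3.02%) at an unadjusted p of at most 0.05. Tap1 had an adjusted limma p of 1.00 there and an unadjusted p of 0.052. With the slide as a block, limma called 1 of the 11 member probes, Tap1, against 5.9% of all probes (3.2% higher and 2.69% lower). The adjusted limma p of Tap1 was then 0.00135, with a blocked SE of 0.11 and a 95% interval of 0.46 to 0.92 for the difference. That fit leaves 1 residual degree of freedom per probe and adds 14.8 prior degrees, estimated over all probes tested. The prior variance follows the brightness of the probe. Without this intensity trend the blocked limma p of Tap1 was 0.242 after adjustment. Leaving out shCTL replicate 2 gave a difference of 0.39. Fits with a left-out array, here and below, had no block and unequal slides, so the difference between slides enters their values. An exact permutation test of 2 arrays against 2 cannot go below p = 0.33.

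The Tap1 probe lies on chromosome 20 of rn4, the build named in the file headers, on the minus strand. Its 60 bases cover 1136 bases of the genome, so the probe spans an exon junction. The probe of Tap1 and those of its closest neighbours, from the array's own annotation, are printed because the comparison among these genes rests on them. Each has at least 1 reading frame without a stop.
Tap1 (chr20:4792827-4793962, minus strand): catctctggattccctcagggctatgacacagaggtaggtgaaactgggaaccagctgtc
Psmb9 (chr20:4806341-4806400, plus strand): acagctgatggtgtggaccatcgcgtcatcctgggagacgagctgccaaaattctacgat
Psmb8 (chr20:4787980-4788039, minus strand): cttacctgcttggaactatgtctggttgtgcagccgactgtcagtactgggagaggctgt
Tap2 (chr20:4770747-4770806, minus strand): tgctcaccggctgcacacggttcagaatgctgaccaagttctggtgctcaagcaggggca

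In the RefSeq gene table of assembly GRCr8 these genes follow each other on chromosome 20 in the order Tap2, Psmb8, Tap1 and Psmb9, with no other gene between them. Tap1 and Psmb9 point away from each other. None of the 3 neighbours of Tap1 passed either fit.

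Psmb9 encodes a catalytic subunit of the immunoproteasome and starts beside Tap1 on the opposite strand. Its level was 0.30 and 0.16 in shCM1 replicates 1 and 2, and 0.35 and 0.34 in shCTL replicates 1 and 2. Both shCM1 arrays lay below both shCTL arrays, by -0.06 on slide 1 and -0.19 on slide 2. The mean difference was -0.12 (SE 0.16), with a 95% interval of -0.34 to 0.10 in the blocked fit and an adjusted limma p of 0.514. The Tap1 difference exceeded that of Psmb9 by 0.67 on slide 1 and 0.95 on slide 2. No test was run on this contrast between the genes.

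Psmb8, another catalytic subunit of the immunoproteasome, had levels of -2.96 and -2.32 in shCM1 replicates 1 and 2, and -2.95 and -1.94 in shCTL replicates 1 and 2. The groups overlapped, and the slides lay further apart than the groups. The difference was -0.0022 on slide 1 and -0.38 on slide 2, with a mean of -0.19 (SE 0.40). Its processed signals were low, between 76.8 and 196 units.

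Psmb10 encodes the remaining inducible catalytic subunit and lies on chromosome 19, away from the cluster. Its level was 3.02 and 3.03 in shCM1, and 3.14 and 3.22 in shCTL. Both shCM1 arrays lay below both shCTL arrays, by -0.12 on slide 1 and -0.19 on slide 2. The mean difference was -0.16 (SE 0.14), and the 95% interval of -0.34 to 0.02 in the blocked fit included 0. Of the 3 inducible subunits, all were lower on both slides and none passed the test, and lower values on both slides were found for 22.6% of all probes.

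Tap2 encodes the other subunit of the TAP transporter, which works only as a pair with TAP1. Its level was -1.76 and -2.57 in shCM1 replicates 1 and 2, and -2.18 and -1.98 in shCTL replicates 1 and 2. It was the highest array of the 4 in shCM1 replicate 1 and the lowest in shCM1 replicate 2. The difference was thus 0.42 on slide 1 and -0.60 on slide 2, with a mean of -0.09 (SE 0.31) and a 95% interval of -0.47 to 0.29 in the blocked fit. Tap1 exceeded Tap2 in its difference by 0.20 on slide 1 and 1.36 on slide 2.

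Tapbp encodes tapasin, which bridges TAP and class I molecules during peptide loading. Its level was -1.22 and -1.73 in shCM1, and -1.37 and -1.80 in shCTL. The groups overlapped and the slides separated, with slide 1 higher in each group. The difference was 0.15 on slide 1 and 0.08 on slide 2, with a mean of 0.11 (SE 0.26), close to the median of all probes. Tap1 and Tapbp were the 2 probes of the 11 that were higher on both slides, against 44.2% of all probes.

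**Figure D1:**
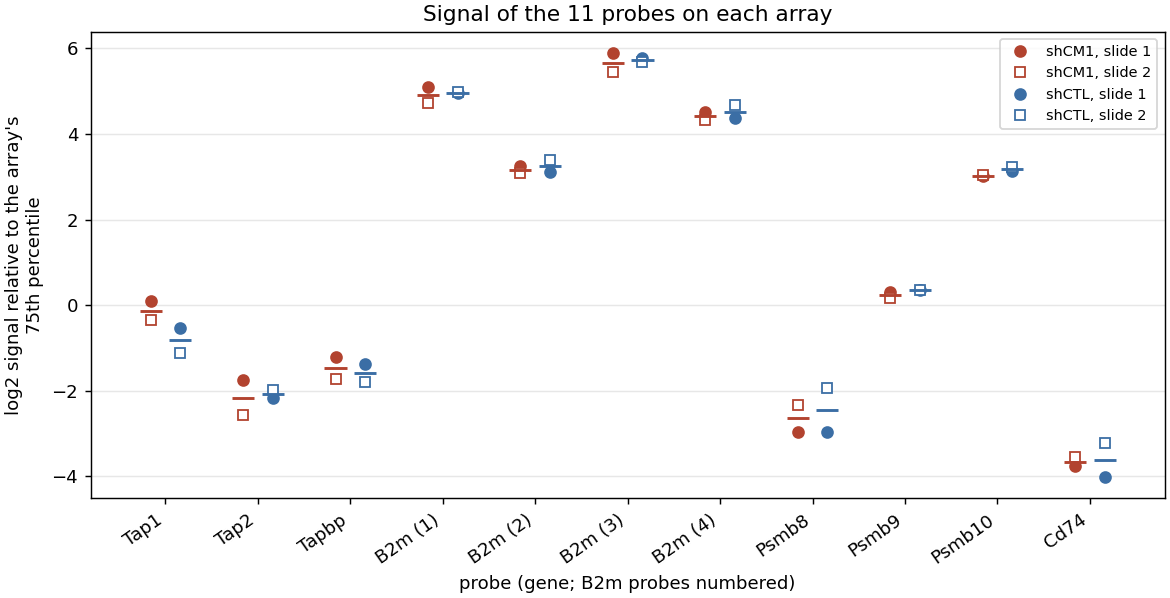
Level of each of the 11 probes on each array, as log2 signal relative to the array's 75th percentile. Red marks are shCM1 and blue marks shCTL, filled circles slide 1 and open squares slide 2, and short lines are group means of 2 arrays. Tap1 had shCM1 levels of 0.09 and -0.36, both above its shCTL levels of -0.52 and -1.13, and heights are not comparable between probes.

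B2m encodes beta-2 microglobulin, the light chain that every class I molecule needs at the cell surface. Its 4 probes gave the same picture, higher in shCM1 on slide 1 and lower on slide 2. The probe spotted 10 times on each array had levels of 5.11 and 4.73 in shCM1, and 4.95 and 4.98 in shCTL. Its spots had an SD of 0.05 to 0.08 within an array, and 2 of its spots in shCTL replicate 2 were marked as outliers and not used. Its difference was 0.16 on slide 1 and -0.25 on slide 2. The differences have opposite signs on the slides, and the spread among spots is technical and does not cover the spread between cultures.

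A second B2m probe, which shares a run of 41 bases with the replicated one and so is not independent of it, had levels of 5.88 and 5.45 in shCM1, and 5.77 and 5.68 in shCTL. Its difference was 0.12 on slide 1 and -0.23 on slide 2. The 2 probes nearer the end of the transcript had 0.12 and 0.13 on slide 1, and -0.31 and -0.35 on slide 2. Mean differences of the 4 probes ran from -0.11 to -0.05, and no 95% interval of the blocked fit reached below -0.32 or above 0.15. The direction of the mean turned for 2 of the 4 probes under quantile normalization, cyclic loess and the authors' own scaling, with values up to 0.03.

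Cd74 encodes the invariant chain, which guides MHC class II molecules and stands for the other route of presentation. Its level was -3.76 and -3.55 in shCM1, and -4.02 and -3.23 in shCTL. Both shCTL arrays lay outside the range of the shCM1 arrays, on either side of it. The difference was 0.25 on slide 1 and -0.32 on slide 2, with a mean of -0.03 (SE 0.32). The processed signals were 43.9 and 63.7 units in shCM1, and 40.3 and 80.6 units in shCTL.

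Across the 11 probes the median difference was -0.09, against 0.08 over all probes tested. It was 0.13 on slide 1 and -0.25 on slide 2, against 0.08 and 0.07 over all probes. On slide 1, 8 of the 11 probes were higher in shCM1, and on slide 2 it was 2 of 11. The slides disagreed in sign for 6 probes, 4 of them those of B2m. The groups did not overlap for Tap1, Psmb9 and Psmb10, or 3 of 11 probes, against 31.8% of all probes (21.8% higher and 10% lower). Replicate number, slide and scan are the same split of these arrays, so these sources of the difference between slides cannot be told apart.

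**Figure D2:**
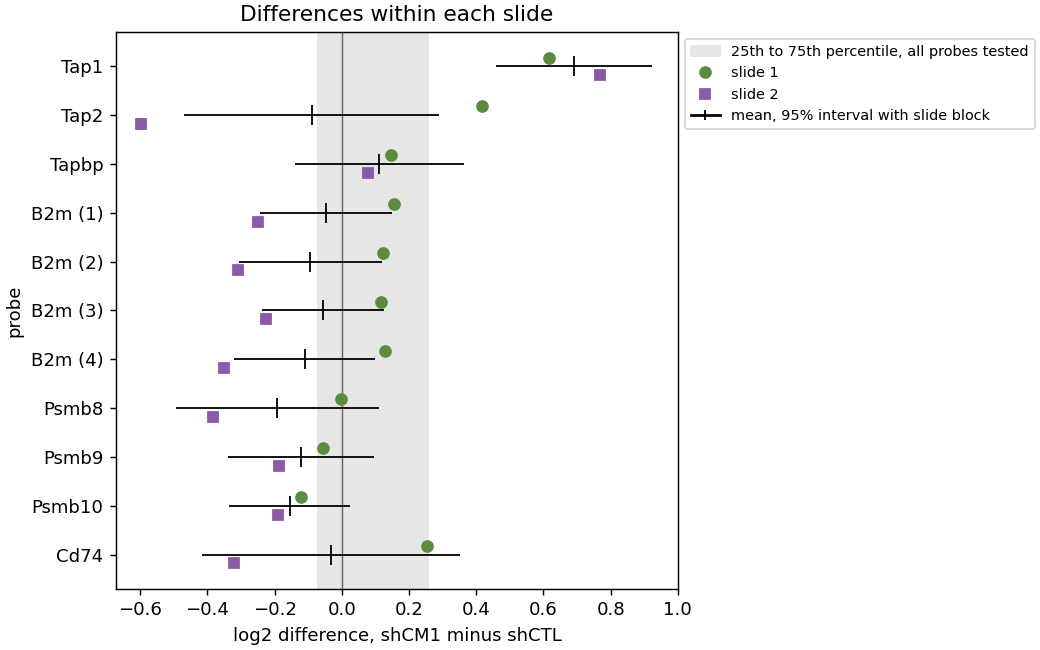
Log2 difference of shCM1 minus shCTL for each probe within slide 1 (circles) and slide 2 (squares), with the mean and its 95% interval from the fit with the slide as a block. The grey band spans the 25th to 75th percentile of the difference over all probes tested, -0.07 to 0.26. Tap1, at 0.62 and 0.77, lies to the right of the band on both slides, while the B2m probes fall on either side of 0.

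Promoters are shown because interferons and NF-kB act on several of these genes through known DNA elements, while only Tap1 passed the test. RefSeq windows of assembly GRCr8, from 250 bases before to 50 bases after the start, were given for all 8 genes. An interferon-stimulated response element (ISRE), searched on both strands as GAAA, any 2 bases and GAAA, was found in 6 of the 8 windows and in 3.92% of all 33469 windows. An NF-kB site, searched as GGG, any 2 bases and TTTCC, was found in 4 of 8 and in 1.53%. The letters TTCNNNGAA of a GAS element, an interferon gamma response site, were found in 1 of 8, that of Psmb8, and in 8.87%. In the 8 windows no match of one of these motifs overlapped a match of another. A match describes the letters and does not show binding.

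The Tap1 window held an ISRE match at -121 to -112 and an NF-kB match at -55 to -46 from its start, both in capitals. The Psmb9 window held neither and shared its first 44 bases with the far end of the Tap1 window, so the Tap1 matches lie between the genes but outside the Psmb9 window. Bases before the starts are given 5′ to 3′ along each gene, up to the start for Tap1 and without the last 50 bases before the start for Psmb9.
Tap1 (GRCr8 chr20:4668544-4668793, minus strand): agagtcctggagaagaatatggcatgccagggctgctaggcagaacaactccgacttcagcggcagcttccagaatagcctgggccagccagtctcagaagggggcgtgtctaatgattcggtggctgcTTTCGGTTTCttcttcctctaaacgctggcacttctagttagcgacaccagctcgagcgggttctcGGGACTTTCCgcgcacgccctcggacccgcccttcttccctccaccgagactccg
Psmb9 (GRCr8 chr20:4668750-4668949, plus strand): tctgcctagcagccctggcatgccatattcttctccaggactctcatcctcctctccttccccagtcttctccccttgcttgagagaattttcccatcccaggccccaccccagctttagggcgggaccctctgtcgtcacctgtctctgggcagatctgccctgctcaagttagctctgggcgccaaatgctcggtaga

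The ISRE matches of the members that did not pass are printed beside them for comparison, with the matching letters in capitals. In B2m the second run of capitals is the NF-kB match, and in Tapbp the capitals are 2 ISRE matches that overlap each other. The Psmb8 match spans the start, at -4 to 5, and the first of 2 Psmb10 matches is shown.
Tap2 (GRCr8 chr20:4652318-4652347, minus strand): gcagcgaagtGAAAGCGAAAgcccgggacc
Psmb8 (GRCr8 chr20:4657016-4657045, minus strand): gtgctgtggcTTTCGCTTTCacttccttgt
Tapbp (GRCr8 chr20:4967881-4967910, minus strand): tttgaggGAAAATGAAAGTGAAAggaaaca
Psmb10 (GRCr8 chr19:50743346-50743375, minus strand): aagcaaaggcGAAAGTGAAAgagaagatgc
B2m (GRCr8 chr3:129549176-129549205, plus strand): acatGAAACTGAAAatgGGAAAGTCCCtct
An ISRE match was thus present in the windows of Tap2, Psmb8, Tapbp, Psmb10 and B2m, none of which passed, as well as in that of Tap1. Tap1, B2m and Tapbp held an ISRE and an NF-kB match together, with mean differences of 0.69, -0.11 to -0.05 over the B2m probes, and 0.11.

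**Figure D3:**
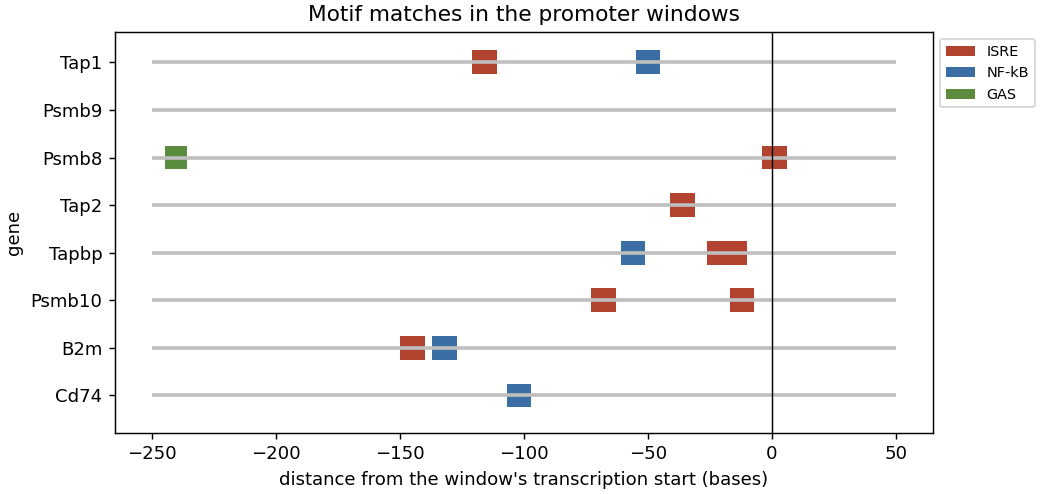
Matches to the ISRE, NF-kB and GAS letters in the 8 promoter windows, by distance in bases from the start of the window's gene, on either strand. ISRE matches are in 6 windows, NF-kB matches in 4 and a GAS match in 1, and the Psmb9 window holds none of these.

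Genes that work beside the members were read from fixed lists, with 1 probe, the brightest, for each gene. Of the 10 genes of class I assembly and peptide trimming, 1 rose in the blocked fit, none fell, and the median difference was -0.02. Of all probes, 3.2% were called higher and 2.69% lower in that fit. Pdia3, a disulfide isomerase of the peptide-loading complex, had levels of 3.72 and 3.46 in shCM1, and 3.33 and 3.06 in shCTL. It differed by 0.39 on each slide (SE 0.18), with an adjusted limma p of 0.0115 with the block, and it passed the blocked fit under all 5 scalings. It had 0.257 without shCM1 replicate 1 and 0.255 without shCTL replicate 2. In this list 4 genes were higher on both slides and 4 lower, against 44.2% and 22.6% of all probes. The higher ones were Pdia3, Tapbpl (0.47), Calr (0.23) and Canx (0.15), and the lower ones Erap1 (-0.04), Npepps (-0.15), Tpp2 (-0.28) and Blmh (-0.28), of which Pdia3 alone passed.

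Of 23 class I heavy chain names in the list, 15 had a probe, and none passed the blocked fit in either direction. Their median difference was -0.12, with 9 genes lower on both slides and 2 higher, against 22.6% and 44.2% of all probes. RT1-CE16 had -0.33 (SE 0.27) with an adjusted limma p of 0.0649 with the block, and RT1-M3-1 had -0.34 (SE 0.25) with 0.0673. Within the slides RT1-CE16 differed by -0.33 on each, and RT1-M3-1 by -0.21 on slide 1 and -0.46 on slide 2. Over the left-out arrays, fitted without the block, RT1-CE16 ran from -0.59 to -0.06. The first was without shCM1 replicate 1 or shCTL replicate 2, the last without shCM1 replicate 2 or shCTL replicate 1. RT1-M3-1 had -0.62 without shCM1 replicate 1, -0.05 without shCM1 replicate 2 and -0.17 without shCTL replicate 1. Heavy chain genes of the rat are near-identical copies, so the probe names within this family are uncertain.

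Of 8 constitutive catalytic subunits and proteasome activators, 2 fell in the blocked fit, none rose, and 7 were lower on both slides, with a median of -0.14. Of all probes, 2.69% were called lower and 22.6% were lower on both slides. Psme3, a subunit of the nuclear PA28 activator, had 2.13 and 1.85 in shCM1, and 2.41 and 2.36 in shCTL, a difference of -0.39 (SE 0.16), or -0.25 without shCM1 replicate 2. Pomp, the assembly chaperone of the proteasome, had 5.60 and 5.51 in shCM1, and 5.80 and 5.90 in shCTL, a difference of -0.30 (SE 0.12). Their adjusted limma p with the block was 0.0225 and 0.0352, and they passed it under 1 and 2 of the 5 scalings. The constitutive counterparts of the inducible subunits, looked up after the values were seen, were Psmb5 at -0.13, Psmb6 at -0.15 and Psmb7 at -0.15, beside -0.19 for Psmb8, -0.12 for Psmb9 and -0.16 for Psmb10. None of these 6 passed, and no test compared the sets.

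Of 14 class II molecules and invariant chain partners tested, 2 rose and 1 fell in the blocked fit, against 3.2% and 2.69% of all probes, with a median of 0.11. Ctss, cathepsin S, which trims the invariant chain and is also in the list of microglial markers, had -2.73 and -3.43 in shCM1, and -3.80 and -4.15 in shCTL. It differed by 0.89 (SE 0.31), with an adjusted limma p of 0.0052 with the block, by 0.48 with normexp and by 0.54 without shCM1 replicate 1. RT1-DOb, a class II modulator listed next to Tap2 on chromosome 20, had -2.70 and -3.36 in shCM1, and -3.55 and -3.74 in shCTL. It differed by 0.62 (SE 0.28), with an adjusted limma p of 0.0385 with the block. It passed under 1 of the 5 scalings, and had 0.37 with normexp, 0.29 without shCM1 replicate 1 and 0.95 without shCM1 replicate 2. Mif, a cytokine that binds CD74, had 6.24 and 6.20 in shCM1, and 6.82 and 6.93 in shCTL. It differed by -0.65 (SE 0.12), passed the blocked fit under all 5 scalings with an adjusted limma p of at most 0.00278, and has pseudogene copies in rodents that make its probe uncertain. The class II chains RT1-Bb (0.08), RT1-Da (0.18), RT1-Db1 (0.04) and RT1-Db2 (-0.16) did not pass, and RT1-Ba, well above background on 1 array, was not tested. RT1-DOa (0.53 and 1.09 on slides 1 and 2) and RT1-DMa (0.31 and 0.27) were higher on both slides and did not pass. RT1-DOa was dim, with levels between -6.68 and -5.42. In this list 6 genes were higher on both slides and 3 lower, against 44.2% and 22.6% of all probes.

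Of 20 regulators tested, 1 fell and none rose in the blocked fit, against 2.69% and 3.2% of all probes, with a median of 0.10. On both slides 14 were higher and 2 lower, against 44.2% and 22.6% of all probes. Ifngr2, a chain of the interferon gamma receptor, had 2.82 and 2.17 in shCM1, and 3.14 and 2.80 in shCTL. It differed by -0.31 on slide 1 and -0.63 on slide 2, with a mean of -0.47 (SE 0.26) and an adjusted limma p of 0.0084 with the block. It had -0.14 without shCM1 replicate 2, -0.30 without shCTL replicate 1 and -0.80 without shCM1 replicate 1, and passed under 4 of the 5 scalings. Irf1, a factor of the interferon response, had 0.23 and did not pass. Ciita, which switches class II genes on, and Ifng, interferon gamma, were not well above background on any array.

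**Figure D4:**
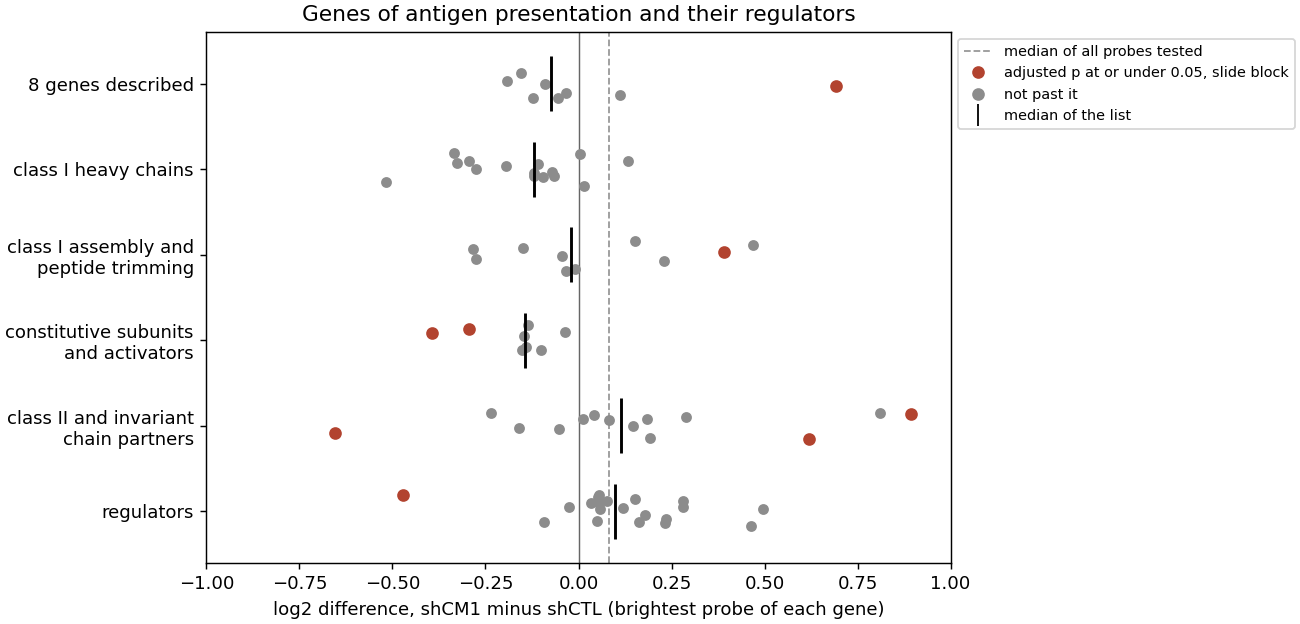
Log2 difference of shCM1 minus shCTL for the 8 genes described and for 5 lists of related genes, 1 point per gene by its brightest probe. Red points passed the blocked fit, bars are list medians and the dashed line is the median of all probes, 0.08. In the top row Tap1, at 0.69, stands right of the other 7 genes, which lie between -0.19 and 0.11.

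Markers of microglia moved with the groups, and their values stand beside the Tap1 result. Of 17 markers tested, 16 were higher on both slides, 6 rose in the blocked fit and none fell, with a median of 0.59. Of all probes, 44.2% were higher on both slides, 3.2% were called higher and 2.69% lower. The summed signal of the 18 markers, in multiples of the 75th percentile, was 16.5 and 15.1 in shCM1, and 13.0 and 13.3 in shCTL. Itgam was not well above background on any array, while Tyrobp differed by 0.97 (SE 0.20). Cd74 is itself a gene of activated microglia, and its mean difference was -0.03 (SE 0.32). Under other scalings Cd74 had -0.21 after quantile normalization, -0.21 with cyclic loess, -0.20 with the authors' values and 0.0017 with normexp, and passed under none. It differed by 0.25 on slide 1 and -0.32 on slide 2, with low processed signals of 40.3 to 80.6 units. The slides disagreed in sign, so the mean does not settle a direction for Cd74. A change in the number of cells of a type and a change in RNA per cell cannot be told apart in these bulk samples, and the part of microglia in the Tap1 difference was not tested. Of the other lists, 2 of 5 fibroblast markers and 2 of 8 oligodendrocyte markers rose, against the same 3.2% of all probes, no astrocyte or endothelial marker passed, and none of the 3 markers of B and dendritic cells tested passed.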

How the data were processed

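Per the file headers, the deposited scanner files came from Agilent Feature Extraction 10.7.3.1 (1 colour, Cy3), and hold linear intensity after background correction, with no scaling between arrays. The authors' deposited value table holds linear intensity too, scaled by a step not given in the sources used here, and served as an alternative. Control spots and spots with outlier marks were left out, spots of a probe were averaged, and log2 was taken relative to the array's 75th percentile. Probes well above background on at least 2 arrays were tested, 36700 in all. limma 3.58.1 in R 4.3.3 (intensity trend, two-sided) compared the groups with Benjamini-Hochberg adjustment over all probes at 0.05. It was also run on simulated data with the same noise for all probes, which cannot check the intensity trend. A second fit had the slide, which is also the replicate number, as a block. Deviations of same-numbered arrays correlated at 0.713 across probes, and the shared scan is given in the file headers.

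All member probes were named. In each list, genes called with the block were named, at most 4, or else the 2 with the smallest p, and any other gene named outside the members was picked after values were seen. The members and lists were chosen with earlier results of these data known. Normexp (offset 50), quantile, cyclic loess, filters, the trend and each left-out array were alternatives. Precision is limited by having 4 arrays. The series' design names 2 independent experiments, and no label says which array came from which; titles write si where the shRNA field writes sh.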

Additional observations from a re-analysis of the deposited data

How the results depend on the processing

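Of the 11 member probes, Tap1 (0.39 to 0.99), Psmb9 (-0.19 to -0.05) and Psmb10 (-0.21 to -0.09) kept their direction under all 17 alternatives, and Tap1 alone passed under any of them. Without the replicate block no probe and no member passed under any scaling, filter or left-out array, a range of 0 to 0 over the left-out arrays. With the replicate block 2164 probes and 1 member probe passed, against 1353 and 1 after quantile normalization, 1422 and 1 with normexp, 972 and 1 with cyclic loess, and 1108 and 1 in the authors' table. The block without the intensity trend called 0 probes, with 6290 at an unadjusted p of at most 0.05. The higher calls numbered 1176 of 2164 in the main scaling with the block, 545 of 1353 with quantile normalization, 635 of 1422 with normexp, 369 of 972 with cyclic loess and 429 of 1108 in the authors' table.

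Signs turned only for differences that passed nowhere. With and without the block, the B2m probe spotted 10 times had 0.0283 after quantile normalization, 0.0334 with cyclic loess and 0.0315 with the authors' values. The B2m probe overlapping it had 0.00545, 0.0324 and 0.0199 under the same scalings. Cd74 had 0.0017 with normexp. Over the left-out arrays Tap2 ran from -0.50 to 0.32, Tapbp from -0.14 to 0.36, Psmb8 from -0.70 to 0.31 and Cd74 from -0.43 to 0.36. The B2m probes ran from -0.24 to 0.14, -0.23 to 0.0395, -0.27 to 0.16 and -0.26 to 0.0390. These ranges come from fits without the block, so the difference between slides enters them. Within the slides Tapbp differed by 0.15 and 0.08, without a turn of sign. Other causes were not tested. Processed signals of Tap2, Psmb8 and Cd74 were at most 196 units.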
